A study of Mus musculus with 18 samples.

Results

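The genes described here are the histone genes of the mouse as they appear in RNA libraries made by selecting polyadenylated RNA. Members were all rows of the deposited table typed as protein coding whose symbol follows the naming of the linker (H1) and core (H2A, H2B, H3, H4) histone families. This rule took 69 genes of 54354 rows: 11 H1, 17 H2A, 17 H2B, 12 H3 and 12 H4 genes. Their levels were examined in 10 libraries from colon, which the labels give as tumor cells of wild type mice.

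The 10 libraries fall into 2 diet groups of 5, both serine-free: SF_CD, where CD is taken as the matched control of the high fat diet, and SF_HFD, the serine-free high fat diet. Serine removal was thus shared by both groups. RNA came from organoids by the extraction protocol (small epithelial cultures grown in gel), whereas the series' design text speaks of live cells sorted for single cell work, and which applies is not settled. The other 8 libraries (3 CD and 5 HFD) were not used, because 4 of 4 housekeeping genes checked were listed at 0 in all of them while being detected in all 10 serine-free libraries. Nothing in the labels ties the 5 libraries of a group to different mice or cultures. The p-values below therefore compare libraries, whose spread may be technical.

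Histones package DNA: pairs of H2A, H2B, H3 and H4 form the nucleosome core, and H1 binds the linker DNA between cores. Most histone genes are replication-dependent. They lie in clusters, lack introns, are transcribed mainly in S phase, and give an mRNA that ends just after a conserved stem-loop, bound by SLBP, instead of in a poly(A) tail. Poly(A) selection therefore captures such mRNA poorly. Replication-independent histone genes, among them H1f0 and most replacement variants, give polyadenylated mRNA throughout the cell cycle and in cells that no longer divide. Some replication-dependent genes also give a minor polyadenylated form.

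The stem-loop was found by its letters, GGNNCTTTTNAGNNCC, on the sense strand of GENCODE M21 transcript models (build mm10). It stood in 41 of the 69 members and in 72 of 21901 protein-coding genes (0.329%). The loops below are those of H4c4, H4c3, H2ac23, H2bc14 and H4c9, the members on which the values below turn, with the 16 bases of the stem and loop in capitals and 5 flanking bases on either side.
H4c4: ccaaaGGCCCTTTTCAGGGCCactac
H4c3: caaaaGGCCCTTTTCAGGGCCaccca
H2ac23: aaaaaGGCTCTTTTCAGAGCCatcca
H2bc14: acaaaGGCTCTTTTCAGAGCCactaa
H4c9: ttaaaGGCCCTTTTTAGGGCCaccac
The loop of H4c4 lies on the plus strand at chr13:23581950-23581965 and that of H4c3 on the minus strand at chr13:23698089-23698104. Those of H2ac23 and H2bc14 lie on the plus strand at chr13:21810898-21810913 and chr13:21722506-21722521, and that of H4c9 on the minus strand at chr13:22040966-22040981. The form of H2ac23 and H2bc14 was the most frequent, with 24 of the 41 loops, and that of H4c4 and H4c3 stood in 6.

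The gene models divide the members by how they end. In 22 members the model ended within 100 bases after the stem-loop, and in 19 it ran further past the loop. A further 15 members had no loop in the model because the model ends at the stop codon, so the loop cannot be read for them. The remaining 13 had a 3′ tail without the loop, and 8 of these carry a poly(A) signal (AATAAA or ATTAAA) in their last 50 bases. H1f0, H2bc4 and H2bc21 belong to the last kind, H1f0 and H2bc21 with that signal and H2bc4 without it. H1f5 belongs to those whose model ends at the stop codon. Of the 69 members, 54 lie on chromosome 13, 10 on chromosome 3, and the rest on chromosomes 6, 15 and 11. A single exon makes up every model of 63 members.

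All 69 members together took between 0.0355% and 0.141% of a library's counts, 34037 counts in all. Of the 69, 59 had at least 1 count and 10 had none in any of the 10 libraries. Those at 0 included H1f6, H1f7, H1f8 and H1f9, the germ cell forms of H1. H2ac1, which had the largest share of sequence of its own among H2A genes, was also at 0. The counts were concentrated: H1f0, H2bc4 and H1f5 held 57.6% of them, and 6 genes held 83.1%. Pooled over libraries, H1 genes held 43.5% of the counts, H2B 23.1%, H2A 17.4%, H4 15.2% and H3 0.796%. In single libraries the shares ran from 34.4% to 54.5% for H1, 8.66% to 41.3% for H2B, 7.18% to 41.55% for H2A, 9.62% to 37.75% for H4 and 0% to 2.71% for H3, so the order of the classes differed between libraries. By the end of the gene model, 48.0% of counts fell on members with a 3′ tail and no loop, 27.0% on members whose model runs past the loop, 13.4% on those that end near it and 11.6% on those that end at the stop codon. In single libraries these shares ran from 14.5% to 65.1%, 17.9% to 48.85%, 6.63% to 28.7% and 4.21% to 29.8%.

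Levels are given as counts per 1000000 (CPM) after TMM scaling of the library totals. Compared between genes per kilobase of the first protein-coding model listed, H1f5 had the highest mean over the 10 libraries, at 108.7 CPM per kb. It was followed by H2ac23 at 98.4, H2bc4 at 75.4, H4c4 at 71.4, H1f0 at 62.3 and H2ac8 at 48.0 CPM per kb. This order turned on SF_CD library 5: without it H2ac23 stood at 98.96, H2bc4 at 77.6, H1f0 at 62.9, H1f5 at 60.4, H2ac8 at 43.9 and H4c4 at 31.2 CPM per kb. Of the replacement variants outside the rule, H2az1 at 1175 and H3f3b at 755 CPM per kb lay far above all members on the same scale, whereas H3f3a at 102.6 CPM per kb lay below H1f5 over the 10 libraries. The places of genes on this scale also depend on the length of the model. That of H1f5 (743 bases) ends at the stop codon, and that of H4c4 (1138 bases) runs 770 bases past the loop. Because the libraries are bulk samples, fewer cells of a type and less RNA per cell cannot be told apart in any of these levels.

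Library totals ranged from 499774 to 12841275 counts, and SF_CD libraries 1 and 5 and SF_HFD library 5 lay under 1000000. In these 3, 3 counts correspond to 6.74, 5.82 and 3.77 CPM after TMM scaling, so a member at 0 there may have had any level up to that, counting error alone considered. SF_CD libraries 1 and 5 also held 22.0% and 14.5% ribosomal RNA, against 2.08% to 7.19% in the other 8. Malat1, a nuclear RNA, took 12.1% of the counts of SF_CD library 1 and at most 1.66% elsewhere. Epithelial markers were present in all 10 libraries, with summed levels of 2078 to 4804 CPM in SF_CD and 4360 to 6810 in SF_HFD. Those sums overlap, whereas scaled by the library total they did not (2045 to 4293 against 4628 to 6219 CPM). Per 1000000 counts of protein-coding genes that are no histone they did not overlap either. T cell markers summed to at most 1.94 CPM, with Cd3e at 0.

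The comparison of SF_HFD with SF_CD asks how levels differ with the high fat diet when both diets lack serine. None of the 19 histone genes with enough counts to be tested passed an adjusted p of 0.05 in edgeR's quasi-likelihood test, against 0.323% of all 11780 genes tested. The lowest adjusted p, 0.166, was that of H1f5. Of the 19, 16 had a log2 fold change below 0 (48.6% of all genes did), and 9 had an unadjusted p under 0.05 with a lower value in SF_HFD (6.73% of all genes), whereas 0 did with a higher value (4.92% of all genes). All 9 had a log2 fold change below -1, as 9.35% of all genes had. The median log2 fold change was -0.89 over the 19 and 0.02 over all genes. DESeq2 called 2 members lower, H1f5 and H4c3, where it called 1.87% of all genes lower (2.53% in either direction), and limma-voom called 0, against 1.47% of all genes. At an unadjusted p under 0.05 DESeq2 had 10 members lower (9.97% of all genes) and limma-voom 8 (8.47% of all genes). Without SF_CD library 5 the 9 members at an unadjusted p under 0.05 became 5, of 21 tested. The share of all genes at that p was not counted in that fit.

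The 19 had to pass a filter on low counts and are not all members. The other 40 detected genes held 1223 counts, 3.59% of the members' total, with 1 to 88 counts each. No H3 gene was tested. With no filter, 59 members could be fitted, 46 of them below 0 with a median of -0.94, and 0 were called. The median over all 24377 genes fitted was 0.05, and their share below 0 was not counted.

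**Figure D1:**
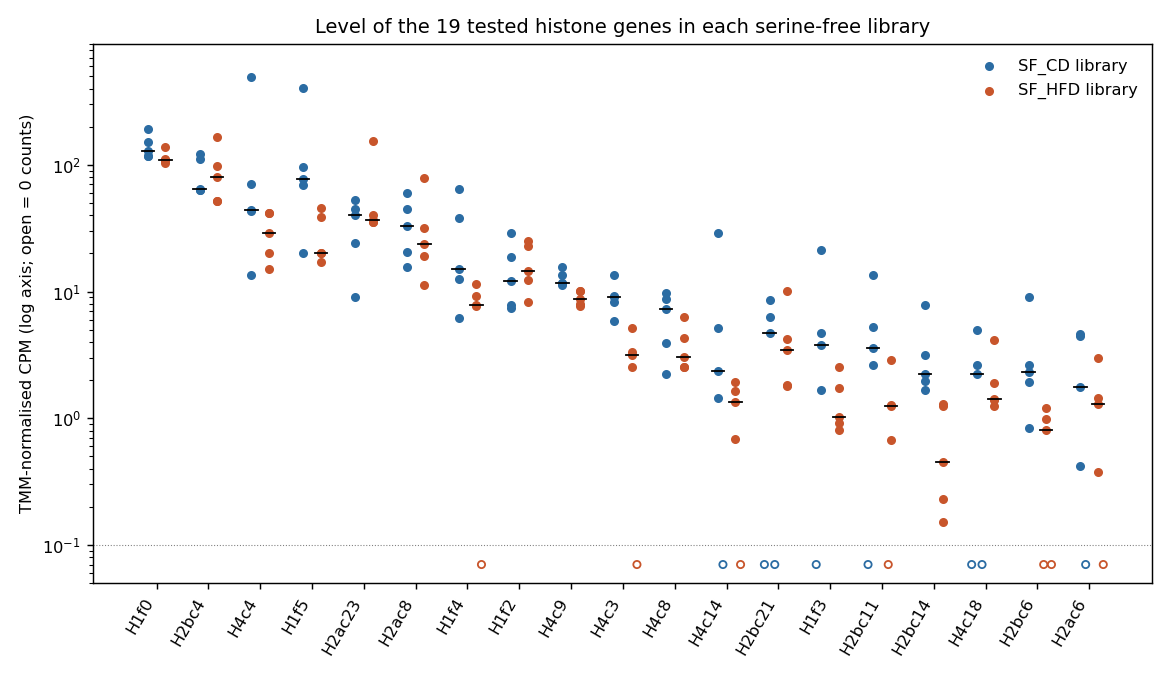
Level of each of the 19 tested histone genes in every library (TMM-normalised CPM, log axis), ordered by mean level, with SF_CD libraries in blue, SF_HFD libraries in orange, black bars at the group medians and open circles for libraries at 0. The highest points of H4c4 (492.8 CPM) and H1f5 (403.5 CPM) are both SF_CD library 5, and that of H2ac23 (153.8 CPM) is SF_HFD library 2.

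The plot of member levels by library shows how unevenly the values are spread. Among linker histones, H1f0 (ENSMUSG00000096210, chr15:79028450-79030504), the replication-independent H1 of resting and differentiated cells, was the most abundant by CPM. Its levels were 128, 193, 152, 118 and 118 CPM in SF_CD libraries 1 to 5 and 104, 138, 112, 109 and 109 CPM in SF_HFD libraries 1 to 5. The groups overlap, and every library lies between 103.6 and 192.6 CPM. SF_HFD differed from SF_CD by a log2 fold change of -0.31 ± 0.29 (SE), with an adjusted p of 0.729 in edgeR's test. None of its 31-base words occurs in another gene, so its counts are not shared with a close copy.

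H1f5 (ENSMUSG00000058773, Hist1h1b in M21, chr13:21779883-21780625) encodes a replication-dependent H1. It stood at 20.2, 76.7, 69.0, 95.9 and 403.5 CPM in SF_CD and at 17.2, 38.6, 46.1, 20.1 and 20.1 CPM in SF_HFD. SF_CD libraries 2 to 5 lay above every SF_HFD library, and SF_CD library 1 lay among the SF_HFD values. The group means were 133 ± 154 and 28.4 ± 13.0 CPM (SD, n = 5 each), and the SF_CD mean was 65.4 CPM without library 5. The log2 fold change was -2.20 ± 0.61 (SE), with an adjusted p of 0.166 in edgeR. Without SF_CD library 5 it was -1.23, and without SF_CD libraries 1 and 5 it was -1.49. DESeq2 gave -2.30 with an adjusted p of 0.0155. Of its 31-base words, 96.1% occur in no other gene.

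The remaining tested H1 genes, all replication-dependent, differed among themselves. H1f4 stood at 38.2, 15.04, 6.14, 12.6 and 64.0 CPM in SF_CD and at 7.84, 9.18, 7.74, 11.5 and 0 CPM in SF_HFD. Its 2 highest values were the 2 shallow SF_CD libraries, and SF_CD library 3 lay within the SF_HFD range. The log2 fold change was -1.67 ± 0.65 (SE), and it was -0.31 without the 3 libraries under 1000000 counts. Its model overlaps that of H2bc6 on the same strand, and 24.5% of its words are shared with that gene. H1f3 had its highest value, 21.3 CPM, in SF_CD library 5 and lay at or below 4.72 CPM in the other 9, with a log2 fold change of -2.11 ± 0.79 (SE), and -1.26 without that library. H1f2 ranged from 7.35 to 29.2 CPM in SF_CD and from 8.20 to 25.2 CPM in SF_HFD, with a log2 fold change of 0.17 ± 0.47 (SE).

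The H2A genes followed another pattern. H2ac23 (ENSMUSG00000094248, Hist1h2ao in M21, chr13:21810465-21810944), the most abundant of them, stood at 8.98, 40.1, 24.2, 52.8 and 44.6 CPM in SF_CD and at 35.2, 153.8, 35.7, 36.7 and 40.3 CPM in SF_HFD. SF_HFD library 2 was alone at the top, and the other 4 SF_HFD libraries lay between 35.2 and 40.3 CPM. The log2 fold change of 0.79 ± 0.51 (SE) had an adjusted p of 0.570 in edgeR, and it was 0.08 without SF_HFD library 2. The name is uncertain for this gene, since 93.8% of its words also occur in H2ac24. The authors' counting gave 3230 counts to H2ac23 and 73 to H2ac24. H2ac8 was likewise highest in SF_HFD library 2, at 78.5 CPM, against 11.3 to 31.6 CPM in the other 4. In SF_CD it ranged from 15.7 to 60.1 CPM, and its log2 fold change was -0.06 ± 0.50 (SE). H2ac6 had at most 4.61 CPM in any library and a log2 fold change of -0.77 ± 0.79 (SE), which was -0.01 without SF_CD library 4.

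Among H2B genes, H2bc4 (ENSMUSG00000018102, Hist1h2bc in M21, chr13:23684199-23692908) held most of the counts. It is a member with 2 exons and a 3′ tail without the stem-loop. It stood at 62.9, 63.0, 111, 123 and 64.0 CPM in SF_CD and at 166, 51.9, 80.6, 51.7 and 98.1 CPM in SF_HFD. The groups overlap throughout, and SF_CD library 5 lay at the lower end. The fitted log2 fold change was 0.07 ± 0.39 (SE), with an adjusted p of 0.971 in edgeR. Of its words, 67.4% occur in no other gene, and 26.15% are shared with H2bc24.

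H2bc14 (ENSMUSG00000114279, chr13:21722044-21722567) has the stem-loop near the end of its model. It was 1 of 3 tested members whose groups did not overlap under TMM scaling (3.65% of all genes tested). It stood at 2.25, 1.98, 1.68, 3.18 and 7.76 CPM in SF_CD and at 0.451, 0.230, 1.29, 0.150 and 1.26 CPM in SF_HFD. Its log2 fold change was -2.26 ± 0.74 (SE), with an adjusted p of 0.239 in edgeR, and it was -1.93 without SF_CD library 5. It rests on 100 counts in all, and a stricter filter of 10 counts in 5 libraries left it out. Its values in SF_CD library 1 and SF_HFD library 5 lay under the level of 3 counts there, 6.74 and 3.77 CPM. The count filter can be passed through the levels of a single group, so the lack of overlap of H2bc14 is a description only. H2bc11 and H2bc6 had log2 fold changes of -1.87 ± 0.82 and -1.79 ± 0.79 (SE) on 176 and 102 counts. H2bc21, a member with a 3′ tail without the loop and 97.2% of its words its own, had -0.39 ± 0.68 (SE). Without the 3 libraries under 1000000 counts H2bc21 stood at -1.19.

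All 6 tested H4 genes had a log2 fold change below 0. H4c4 (ENSMUSG00000061482, Hist1h4d in M21, chr13:23581598-23582735), the most abundant, stood at 13.5, 42.9, 44.4, 70.5 and 492.8 CPM in SF_CD and at 20.01, 42.0, 41.8, 29.1 and 15.1 CPM in SF_HFD. SF_CD library 5 was alone at the top. SF_CD library 1, where 3 counts correspond to 6.74 CPM, was the lowest of all 10 under TMM scaling. The other 3 SF_CD libraries lay above every SF_HFD library under that scaling, the closest at 42.9 against 42.0 CPM. Scaled by the library total, SF_HFD library 2 lay above SF_CD libraries 2 and 3. The log2 fold change of -2.12 ± 0.73 (SE) had an adjusted p of 0.283 in edgeR, and it was -0.57 without SF_CD library 5, when the SF_CD mean was 42.8 in place of 133 CPM.

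H4c3 (ENSMUSG00000060678, Hist1h4c in M21, chr13:23697635-23698454) did not depend on that library. It stood at 13.5, 9.22, 8.24, 8.995 and 5.82 CPM in SF_CD and at 3.34, 2.53, 5.16, 3.16 and 0 CPM in SF_HFD. The groups did not overlap under TMM scaling. SF_CD library 5 was the lowest of its group, at a value of 3 counts, next to 5.16 CPM in SF_HFD library 3. Its log2 fold change was -1.51 ± 0.53 (SE), with an adjusted p of 0.284 in edgeR and 0.0481 in DESeq2, and it ranged from -1.79 to -1.25 over the alternatives tried. Of its words, 22.2% are shared with H4c1.

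H4c9 (ENSMUSG00000060639, Hist1h4i in M21, chr13:22040636-22041362) was the third member whose groups did not overlap under TMM scaling, and they overlapped when scaled by the library total. It stood at 13.5, 11.7, 11.2, 15.7 and 11.6 CPM in SF_CD and at 8.02, 10.1, 8.75, 7.67 and 10.1 CPM in SF_HFD. The means of 12.7 ± 1.85 and 8.92 ± 1.13 CPM (SD, n = 5 each) lie close together, and the log2 fold change was -0.53 ± 0.36 (SE), with an adjusted p of 0.601 in edgeR. H4c14, the H4 gene with the largest share of words of its own (97.7%), reached 29.2 CPM in SF_CD library 1 and at most 5.16 CPM elsewhere. Its log2 fold change of -2.17 ± 0.90 (SE) was -0.98 without that library. H4c8 and H4c18 had -0.89 ± 0.51 and -0.36 ± 0.65 (SE).

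H3 genes were close to absent, with 271 counts over 12 genes and 10 libraries. H3c4, the H3 gene with the largest share of words of its own, had 80 of them. It stood at 27.2 CPM in SF_CD library 5 and at most 2.57 CPM in the other 9. H3c1, H3c10 and H3c14 were listed at 0 in all 10 libraries. Of their words 41.1%, 5.77% and 0% are their own, and all words of H3c14 also occur in Gm20634, an overlapping noncoding gene given 706 counts.

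**Figure D2:**
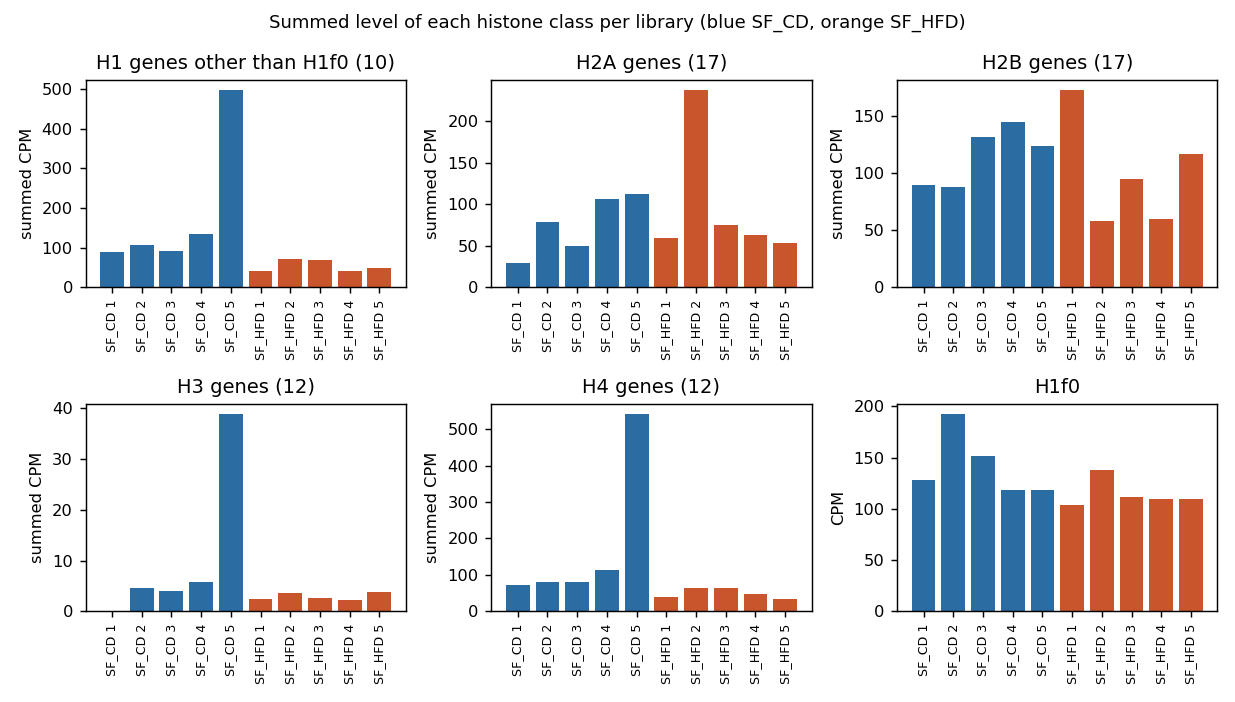
Summed level of each histone class (H1 without H1f0), and of H1f0 alone, in each library (TMM-normalised CPM, linear axis from 0, SF_CD blue and SF_HFD orange). SF_CD library 5 stands out in H1 genes other than H1f0, H3 and H4 (498.6, 38.8 and 541.3 CPM). It does not in H1f0 or in the H2B sum, of which H2bc4 is the largest part. SF_HFD library 2 stands out in H2A (237.6 CPM).

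The plot of summed class levels shows which libraries carried the differences. Over all 69 members the sums were 406, 550, 510, 620 and 1434 CPM in SF_CD and 419, 572, 417, 323 and 366 CPM in SF_HFD. The means were 704 ± 415 and 419 ± 94.1 CPM (SD, n = 5 each), the groups overlap, and without SF_CD library 5 the SF_CD mean was 522 CPM. The excess of that library was uneven. Its H4 genes summed to 541.3 CPM, where the rest of SF_CD had 71.9 to 113 CPM and SF_HFD 35.2 to 64.8 CPM. Its H1 genes other than H1f0 summed to 498.6 CPM, against 87.6 to 133 and 40.6 to 71.9 CPM. Its H2B genes summed to 124 CPM, within the 87.5 to 145 CPM of the other 4. Of that sum 64.0 CPM was H2bc4, which stood at 62.9 to 123 CPM in the other 4. H2bc18 and H2bc11 were highest in SF_CD library 5, at 23.3 and 13.6 CPM, and H2bc12 and H2bc21 were at 0 there.

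The sums of H4 genes and of H1 genes other than H1f0 did not overlap between the groups under TMM scaling. Under the other 2 scalings, of the library total and of protein-coding genes that are no histone, both sums overlapped. SF_HFD library 2 had the highest H2A sum, 237.6 CPM against 52.8 to 74.6 CPM in the other SF_HFD libraries, and under TMM scaling the lowest H2B sum, 57.9 CPM. Under the other 2 scalings SF_HFD library 4 had the lowest H2B sum, 65.8 against 69.1 CPM and 70.9 against 77.3 CPM in SF_HFD library 2.

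H1f5 and H4c4 were both highest in SF_CD library 5, so their promoters are shown side by side. The 250 bases before the RefSeq start (GRCm38.p6) are given on the gene's own strand, with CCAAT, its reverse complement ATTGG, and TATAAA in capitals.
H1f5: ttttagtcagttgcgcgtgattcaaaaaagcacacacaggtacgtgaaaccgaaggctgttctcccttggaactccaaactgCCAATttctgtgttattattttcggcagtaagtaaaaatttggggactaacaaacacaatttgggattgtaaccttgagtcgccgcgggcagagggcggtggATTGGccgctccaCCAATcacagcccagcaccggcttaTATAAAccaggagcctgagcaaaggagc
H4c4: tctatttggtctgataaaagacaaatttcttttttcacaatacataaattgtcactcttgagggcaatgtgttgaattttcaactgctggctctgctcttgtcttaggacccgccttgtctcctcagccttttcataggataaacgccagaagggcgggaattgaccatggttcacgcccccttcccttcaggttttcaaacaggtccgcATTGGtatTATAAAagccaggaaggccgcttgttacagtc
The H1f5 window is chr13:21780626-21780875 on the minus strand and the H4c4 window chr13:23581318-23581567 on the plus strand. TATAAA begins 28 bases before the start in H1f5 and 32 bases before it in H4c4. Over 63 windows of 62 members matched by symbol, CCAAT stood on either strand in 79.4%, against 33.85% of 32851 promoters over the same 250 bases. TATAAA stood on either strand in 44.4% against 12.4%. The octamer ATTTGCAT stood in 20.6% against 1.60%, in 6 of 17 H2A and 7 of 15 H2B windows and in none of the H1, H3 or H4 windows. Windows of neighbouring H2A and H2B genes can overlap, so a single site of any of these motifs may count for both. The octamers of H2ac12 and H2bc12, of H2ac8 and H2bc8, and of H2ac1 and H2bc1 are such shared sites. The H1f0 window held none of the 3 motifs. A match of letters is a description and not a binding site.

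**Figure D3:**
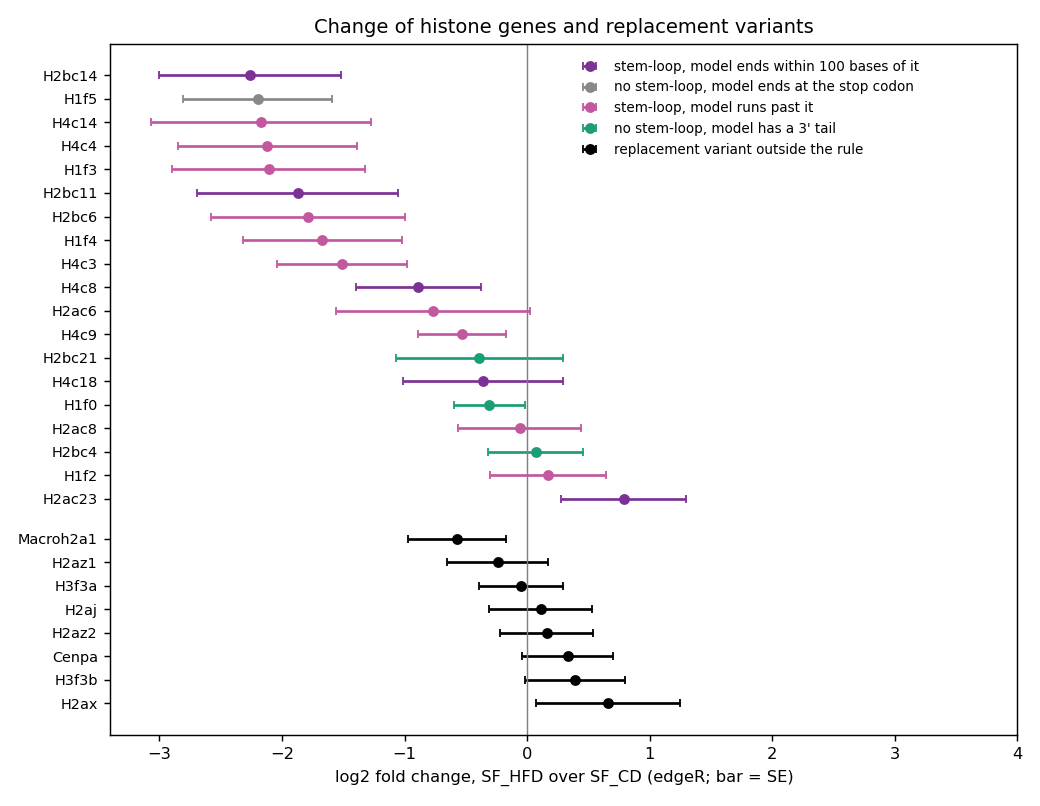
Log2 fold change of SF_HFD over SF_CD with its standard error (edgeR) for the 19 tested histone genes, coloured by how their gene model ends, and in black for the 8 tested replacement variants. Most stem-loop members lie left of 0 and the 3 members with a 3′ tail and no loop lie between -0.39 and 0.07.

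The plot of fold changes by gene model sets the members side by side. The 5 tested members whose model ends near the stem-loop had a median log2 fold change of -0.89, with 4 below 0. The 10 whose model runs past the loop had -1.59, with 9 below 0 and 6 at an unadjusted p under 0.05. The 3 with a 3′ tail and no loop, H1f0, H2bc4 and H2bc21, had -0.31, with 0 at an unadjusted p under 0.05. The 1 whose model ends at the stop codon, H1f5, had -2.20. Without the 3 libraries under 1000000 counts H1f0, H2bc4 and H2bc21 stood at -0.41, -0.17 and -1.19. The loop members tested above then ran from -2.03 (H2bc14) to 0.73 (H2ac23). The difference between these kinds was not tested.

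Replacement variants gave 0 called of 8 tested, 5 with a value above 0 and 3 below, and a median log2 fold change of 0.14. Most of them are deposited in chromatin also outside S phase and come from polyadenylated mRNA. H3f3b, one of a pair of genes for H3.3, averaged 1642 ± 882 CPM in SF_CD and 2156 ± 749 CPM in SF_HFD (SD, n = 5 each). H2az1, the gene of H2A.Z, averaged 1358 ± 715 and 1154 ± 318 CPM, and H3f3a, the other H3.3 gene, 296 ± 125 and 287 ± 44.1 CPM. All of these groups overlap. H2ax, whose product is phosphorylated at DNA breaks, had a log2 fold change of 0.66 ± 0.59 (SE), with an adjusted p of 0.713 in edgeR, and 0.07 without SF_HFD library 2.

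Genes of histone mRNA processing gave 0 called of 22 tested, 11 in each direction, with a median log2 fold change of -0.03. Slbp, which binds the stem-loop, had 0.15 ± 0.44 (SE), and Npat, the coactivator of replication-dependent histone genes, had 0.19 ± 0.37 (SE). The 3 most abundant, Snrpg, Snrpe and Snrpd3, encode Sm proteins that this pathway shares with the spliceosome and had -0.35, -0.07 and -0.37. Casp8ap2, which encodes the processing factor FLASH, was the only gene of the list at an unadjusted p under 0.05, with -1.02 ± 0.45 (SE), and is named for that after its value was seen. Without the 3 libraries under 1000000 counts its value was 0.04.

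Histone chaperones, which carry histones to and from DNA, gave 0 called of 25 tested, 7 above 0 and 18 below, with a median of -0.30 and 4 at an unadjusted p under 0.05, all lower. The most abundant were Atrx, a remodeller that places H3.3, with -1.23 ± 0.46 (SE), Anp32e, which removes H2A.Z, with -0.24 ± 0.33, and Supt16, a subunit of FACT, with -0.92 ± 0.40. Without the 3 shallow libraries Atrx stood at 0.01 and Supt16 at -0.17, and without SF_CD library 5 alone Supt16 stood at -0.39.

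Since histone mRNA is made in S phase, genes of DNA replication and of mitosis were read beside the histone values. The S-phase list gave 0 called of 40 tested, 20 in each direction, with a median log2 fold change of -0.02. At an unadjusted p under 0.05 in edgeR, 3 of its genes were higher in SF_HFD and 2 lower. Pcna, the replication clamp, had 0.04 ± 0.38 (SE), Lig1, the replicative ligase, had -1.12 ± 0.44, and Rrm2, a subunit of ribonucleotide reductase, had 0.24 ± 0.52. The mitosis list gave 0 called of 18 tested, 2 above 0 and 16 below, with a median of -0.51 and 6 at an unadjusted p under 0.05, all lower. Top2a, which untangles chromosomes, had -1.06 ± 0.42 (SE), with an adjusted p of 0.340 in edgeR. Cenpf, a kinetochore protein, had -1.87 ± 0.54, Birc5, the survivin gene, had -0.26 ± 0.44, and Mki67, the proliferation marker, had -0.33 ± 0.50. Without the 3 shallow libraries Cenpf stood at -0.67, Top2a at -0.49 and Mki67 at 0.29, and without SF_CD library 5 alone Lig1 stood at -0.63.

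**Figure D4:**
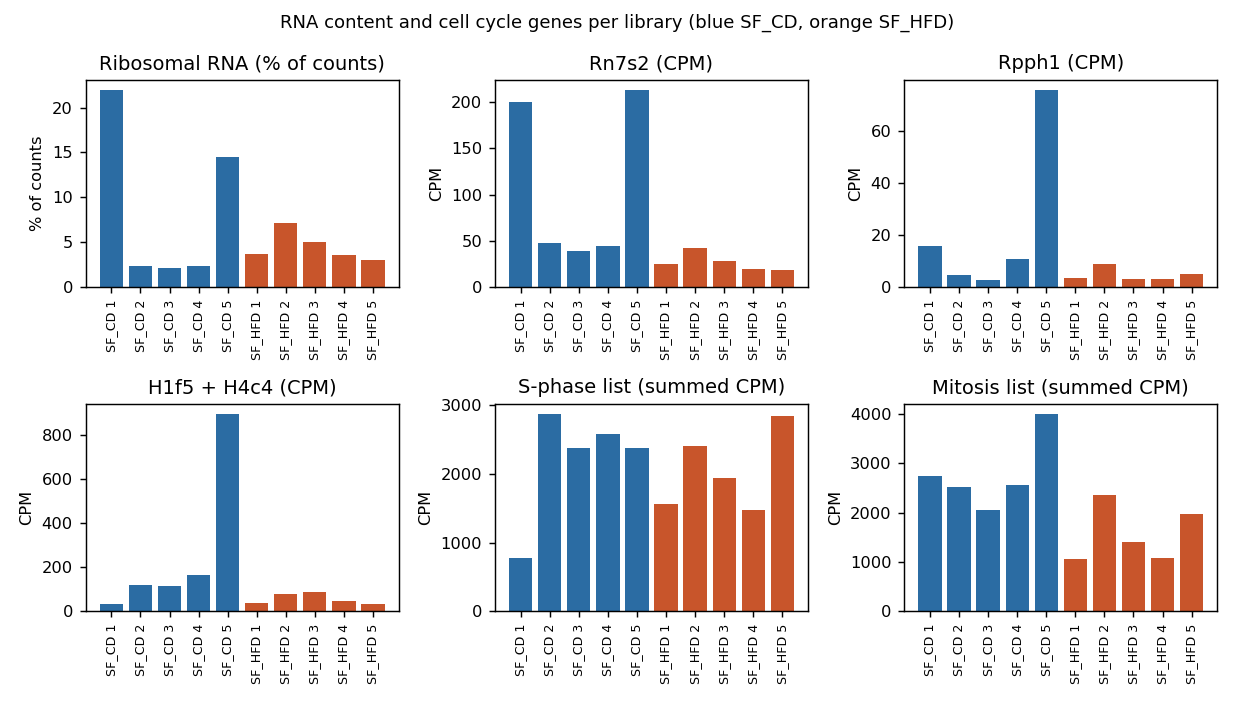
Ribosomal RNA share, 2 RNAs without a poly(A) tail (Rn7s2 and Rpph1), the summed level of H1f5 and H4c4, and the summed S-phase and mitosis lists in each library (linear axes from 0, SF_CD blue, SF_HFD orange). SF_CD library 5 is highest in Rn7s2, Rpph1, H1f5 with H4c4, and the mitosis list, and not in the S-phase list. SF_CD library 1 has the most ribosomal RNA, comes second in Rn7s2 and Rpph1, and is not high in H1f5 with H4c4.

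The plot of RNA content shows what else was high in the library with the most histone RNA. SF_CD library 5 had an S-phase sum of 2373 CPM, within the range of 775 to 2873 CPM of the other SF_CD libraries. Its mitosis sum of 3993 CPM was above their 2042 to 2748 CPM. SF_HFD libraries ranged from 1055 to 2364 CPM in the mitosis sum and from 1471 to 2840 CPM in the S-phase sum.

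RNAs that carry no poly(A) tail showed the same library at the top. Of 19 such RNAs in the table, 12 were detected and 5 tested, with 0 called, 5 of 5 below 0, 4 at an unadjusted p under 0.05 and a median log2 fold change of -1.97. Rn7s2, a 7SL RNA of the signal recognition particle, stood at 200, 47.4, 38.8, 44.2 and 213 CPM in SF_CD and at 25.2, 42.2, 28.0, 19.3 and 18.9 CPM in SF_HFD. Rpph1, the RNA of RNase P, stood at 15.7, 4.50, 2.79, 10.7 and 75.7 CPM in SF_CD and at 3.34, 8.72, 2.95, 3.16 and 5.03 CPM in SF_HFD. Both were highest in SF_CD library 5, and SF_CD library 1 came second. In SF_CD library 1, H4c4 and H1f5 stood at 13.5 and 20.2 CPM, and all members summed to 406 CPM under TMM scaling. That was the lowest sum of SF_CD under TMM scaling, as it was when scaled by the library total. Scaled on protein-coding genes that are no histone, the sum of SF_CD library 1 was 570.5 CPM, above the lowest of SF_CD, 482.4 CPM. Of the 19 tested members, 4 were highest in that library and 7 in SF_CD library 5. The log2 fold changes of Rn7s2 and Rpph1 were -1.97 and -2.09, and -0.60 and -0.44 without the 3 shallow libraries.

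Snora73b, the third of the abundant ones, had a log2 fold change of -0.30 ± 0.37 (SE), and Rmrp was at 0 in all 10 libraries. Malat1, whose end is cut to a triple helix in place of a tail, had -2.04 ± 0.80 (SE), and 0.28 without SF_CD libraries 1 and 5. The part of RNA without a tail, of ribosomal RNA and of library size in the histone values was not tested. Without SF_CD libraries 1 and 5, 26 members were tested, 23 lay below 0, 6 had an unadjusted p under 0.05, and the median was -0.89. The median over all 12750 genes tested in that fit was 0.03, and their shares below 0 and at that p were not counted.

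Markers of other cells also differed between the groups. Smooth muscle markers gave 3 of 5 tested called higher in SF_HFD, Acta2, Actg2 and Myl9, with log2 fold changes of 3.97, 4.47 and 4.49 (adjusted p of 0.00232, 0.0159 and 0.000156 in edgeR). Actg2 no longer passed without SF_CD library 1, SF_HFD library 2 or SF_HFD library 5, with adjusted p in edgeR of 0.0582, 0.0565 and 0.0533, and neither Acta2 (0.0620) nor Actg2 (0.155) passed without all 3 shallow libraries, where their log2 fold changes were 4.10 and 4.27. Their list summed to 2.93 to 23.2 CPM in SF_CD and 160.3 to 254.1 CPM in SF_HFD. Fibroblast markers summed to 11.4 to 91.2 and 60.2 to 129.6 CPM, with 0 of 5 called, and epithelial markers had 0 of 8 called with a median log2 fold change of 0.65. The macrophage list gave 0 of 3 called and the endothelial list 0 of 1. The part of these cells in the histone values was not tested.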

How the data were processed

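Libraries were poly(A)-selected and strand-specific, per the labels' protocols. The authors deposited estimated counts per gene, as whole numbers, which per the submitters' processing notes come from Salmon 1.3.0 and build mm10. Which annotation and strand setting were used, and whether rows were filtered, is not given in the sources used here. Reads that fit several transcripts are divided by Salmon's estimate, so counts of near-identical histone genes are uncertain, and the share of each gene's 31-base words found in no other gene (median 43.7%, under 10% in 11 members) measures this. The 8 CD and HFD columns served only for the check of row labels, and 1243 rows had no symbol. Of the row identifiers, 94.7% occur in GENCODE M21, all 69 members among them, and coordinates and transcript models come from it.

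Counts of the 10 serine-free libraries were fitted with edgeR 4.0.16 (quasi-likelihood, TMM, filterByExpr) in R 4.3.3, with p-values adjusted by Benjamini-Hochberg over all 11780 genes and a threshold of 0.05. Standard errors are the size of the log2 fold change divided by the root of F. Alternatives used DESeq2 1.42.0, limma 3.58.1, other scalings and filters, a replicate block, and libraries left out. Tested on simulated counts for the same comparison (11780 genes, 200 changed, all with at least 10 counts on average), edgeR recovered 49% of genes changed 4-fold and 3% of those changed 2-fold, with 0 unchanged genes called. Members and gene lists were chosen with earlier results of these data known. Every member could be named, and those in full were the called, the 12 most abundant, H1f0 and the members with the most sequence of their own per class. From other lists the called genes, up to 4, or otherwise the 3 most abundant were named, with 12 fixed genes.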

Additional observations from a re-analysis of the deposited data

Results flagged for a closer look

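In 42 sets of 5 libraries checked, the highest or lowest library stood apart in 11. The rule used flags about 1 in 20 sets of independent, normally spread values. These sets share libraries, and the sums contain the single genes, so the 11 cannot be read against that rate. Of the 11, 6 were SF_CD library 5: the summed level of all members (1434 CPM), the sum without H1f0 (1315 CPM), H4c4 (492.8 CPM), H1f5 (403.5 CPM), H1f3 (21.3 CPM) and H2bc14 (7.76 CPM). SF_CD library 1 stood apart in H4c14 (29.2 CPM) and H2bc6 (8.98 CPM). SF_HFD library 2 stood apart in H2ac23 (153.8 CPM), H1f0 (138 CPM) and H4c18 (4.13 CPM).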

How the results depend on the processing

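Members called by edgeR numbered 0 under every scaling, filter and left-out library, and limma-voom and the block also called 0. DESeq2 called 2 lower. Genes called over the whole table numbered 38, against 78 with no filter, 18 with the stricter filter, 298 by DESeq2, 173 by limma-voom and 16 to 88 with 1 library left out. The median log2 fold change of the tested members lay between -1.44 and -0.78 with 1 library left out. The labels' replicate numbers are shared between groups but same-numbered libraries did not deviate together (r from -0.211 to 0.136, and in 1 of 5 was the library of its own number the best match), so they share only a number. With the replicate as a block 22 genes were called, the members' median was -0.86, and 4 of 19 had an unadjusted p under 0.05. The median over all genes was 0.11 in that fit, and their share at that p was not counted.

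Several log2 fold changes changed sign. With 1 library left out, log2 fold changes ranged from -0.28 to 0.23 for H2bc4, -0.66 to 0.17 for H2ac8, -0.03 to 0.43 for H1f2, -0.77 to 0.00 for H2bc21, -0.76 to 0.14 for H4c18, -0.24 to 0.07 for H3f3a, -0.10 to 0.37 for Slbp, -0.30 to 0.11 for Snrpe, -0.18 to 0.25 for Pcna and -0.34 to 0.52 for Rrm2. Under the block H2bc4 stood at -0.02, H3f3a at 0.05 and Snrpe at 0.09. Limma-voom gave H2bc4 -0.16, H2ax -0.21, Slbp -0.16, Pcna -0.33 and Rrm2 -0.51. Without the 3 shallow libraries the values were -0.17 for H2bc4, 0.21 for H2ac8, -0.29 for H3f3b, -0.14 for Slbp, 0.04 for Casp8ap2, 0.01 for Atrx, -0.37 for Pcna, -0.81 for Rrm2, 0.29 for Mki67 and 0.33 for Malat1. Without SF_CD libraries 1 and 5 they were -0.15 for H2bc4, 0.03 for H2ac8, -0.07 for H3f3b, -0.22 for Slbp, -0.38 for Pcna, -0.26 for Rrm2, 0.14 for Mki67 and 0.28 for Malat1. The cause was not tested.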
